A study of Mus musculus with 21 samples.

Results

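The effect of prenatal valproic acid (VPA) on gene expression in mouse neural stem/progenitor cells was compared between embryonic day 15 (E15), shortly after dosing, and postnatal day 5 (P5). The comparison used the 12 of 21 libraries of the series that were made at these 2 ages, 3 each of VPA E15, control E15, VPA P5 and control P5, and was chosen by age and not by measured values. All mice were C57BL/6 and carried the Nestin-EGFP transgene, in which nestin sequences drive a green fluorescent protein. Their mothers were given VPA by mouth at 300 mg/kg/day, or methylcellulose in the control groups, on E12, E13 and E14. GFP-positive cells were sorted by FACS from the forebrain at E15 and from the dentate gyrus at P5, so age and dissected tissue cannot be told apart in any difference between the 2 ages. It is not stated whether replicates came from separate litters, so p-values measure the spread between these libraries, which may be technical.

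For each gene, the change of the VPA effect was the VPA minus control difference at P5 minus the VPA minus control difference at E15. Values were on the log2(FPKM + 1) scale, where FPKM counts sequenced fragments scaled by transcript length and library size. Changes of low genes come out too small on it because of the added 1. A negative change means that VPA libraries stood lower relative to controls at P5 than at E15, and a positive change means the reverse. Of 24322 gene symbols, 13722 had at least 1 FPKM in at least 3 of the 12 libraries and were tested with limma. A gene counted as called at a Benjamini-Hochberg adjusted p under 0.05. Called genes were then sorted by the unadjusted p of the VPA effect at each age in the same fit. The effect flipped where it had an unadjusted p under 0.05 at both ages with opposite signs, appeared where only P5 had one, and disappeared where only E15 had one.

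VPA is an anticonvulsant and mood stabiliser that inhibits class I histone deacetylases, and exposure in the womb is known to impair brain development. Neural stem/progenitor cells at E15 build the neurons of the forebrain, while those of the dentate gyrus in the first postnatal week give rise to granule neurons and to the stem cells that persist in the adult. Many of the genes described here are immediate early genes, which are transcribed within minutes of a stimulus such as a growth factor, synaptic activity or tissue handling, without new protein synthesis, and which encode transcription factors and feedback regulators of signalling. Nestin, whose sequences drive the transgene, is an intermediate filament protein of neural stem cells that is also made by pericytes, the contractile cells that wrap capillaries.

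Each library summed to 465610 to 506183 FPKM and had 12168 to 13351 genes at 1 FPKM or more. Read totals were not analysed, and the depth estimated from low values lay between 0.966 and 1.40 times that of control E15 replicate 1 at E15, and between 0.678 and 1.33 times at P5. Nes was present in every library, at 14.2 to 20.1 FPKM at E15 and 9.89 to 13.4 FPKM at P5, and 19 of 20 listed neural stem cell genes passed the filter. VPA E15 replicate 3 stood apart through choroid plexus genes, whose summed level was 11417 FPKM against 15.3 to 163 FPKM in the other E15 libraries. In the same library astrocyte genes summed to 526 FPKM against 143 to 162 FPKM in the other E15 libraries. Its fibroblast and meningeal genes summed to 107 against 22.6 to 26.8 FPKM. The Y-linked gene Ddx3y was at 19.1 to 20.8 FPKM in the VPA P5 libraries, against 22 FPKM in control P5 replicate 3 and at most 0.0129 FPKM in control P5 replicates 1 and 2, where the X-inactivation transcript Xist was at 317 and 308 FPKM. Xist was at 20.0 FPKM in VPA P5 replicate 2 and at most 2.65 FPKM in the other P5 libraries. At E15, replicate 2 of both groups lacked Ddx3y, so that sex was balanced between VPA and control at E15 and was not at P5.

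Markers of other cell types also differed between groups. Summed over 14 pericyte and mural genes, the level was 200 to 356 FPKM in VPA P5 libraries against 137 to 155 FPKM in control P5 libraries, and 18.1 to 24.5 FPKM in VPA E15 against 26.2 to 28.0 FPKM in control E15 libraries. Fibroblast and meningeal genes summed to 111 to 130 FPKM in VPA P5 against 61.9 to 78.8 FPKM in control P5 libraries, microglia and macrophage genes to 69.2 to 102 against 56.5 to 65.5 FPKM, and endothelial genes to 41.0 to 49.5 against 29.6 to 34.8 FPKM. The fibroblast sum included Pdgfra, also listed for oligodendrocyte precursors, at 39.6 to 80.6 FPKM across the P5 libraries. It also included Igf2 at 10.9 to 33.3 FPKM. Erythroid genes went the other way at P5, at 209 to 747 FPKM in VPA and 1367 to 1791 FPKM in control libraries. No pericyte, endothelial or microglial marker was at 0 in all 6 P5 libraries, but 7 of 15 endothelial markers, among them the defining genes Cdh5 and Kdr, stayed under 1 FPKM in all 6 of them, and 12 of 17 microglial markers did so at E15. In such sorted bulk samples fewer cells of a type and less RNA per cell cannot be told apart. The part of these markers in the results was not tested.

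The VPA effect differed between the ages for 157 of 13722 genes (1.14%), of which 106 (0.772%) had a negative and 51 (0.372%) a positive change. The effect flipped for 92 genes (0.670%), appeared at P5 for 52 (0.379%) and disappeared after E15 for 13 (0.0947%). Among the flips, 66 genes (0.481%) were higher with VPA at E15 and lower at P5, and 26 (0.189%) were lower at E15 and higher at P5. These classes depend on their rule: with an adjusted p under 0.05 at each age in its place, 2 genes flipped, 103 appeared and 2 disappeared, and with a difference of at least 0.5 on the log2 scale at each age 16 flipped. Effects had opposite signs at the 2 ages for 155 of the 157 called genes and for 7109 of all tested genes (51.8%), and selection on the difference between ages favours opposite signs. Across the 13722 tested genes, which are not independent replicates, the E15 and P5 effects had a Pearson correlation of -0.00419 and a Spearman correlation of -0.0437, from libraries that the 2 ages do not share.

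Deviations of same-numbered VPA and control libraries from their group means correlated at 0.108 to 0.161 at E15 and at -0.0374 to 0.0690 at P5. The labels do not state that replicate numbers pair libraries. With the replicate number as a block at E15, added after the data were seen, limma called 124 genes for the change, 102 of them among the 157, with 87 negative and 37 positive, and 30 of the 124 appeared at P5. With a block at both ages, which leaves 4 residual degrees of freedom against 8 without a block, it called 17 genes, 16 of them among the 157. For the genes named by rule, the adjusted p with a block is given where the call was lost, from the block at E15 where it was lost there and otherwise from the block at both ages.

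Within the ages, limma called 5 genes at E15 (0.0364%) and 368 at P5 (2.68%) at an adjusted p under 0.05, and 2024 (14.8%) and 2666 genes (19.4%) had an unadjusted p under 0.05. At E15 limma called 6 genes with the block at E15 and 0 with the block at both ages, where 1862 had an unadjusted p under 0.05. Higher with VPA were 3 genes at E15 (0.0219%) and 183 at P5 (1.33%), and lower were 2 at E15 (0.0146%) and 185 at P5 (1.35%). The 3 at E15 were Slc30a1, Spry2 and Srf, and all 3 also passed the test of the change between ages. Of the 157 genes, 105 were also called at P5 and 50 were called at neither age by adjusted p, so the call at E15 that most of them lack does not show that VPA had no effect there. In 97 of the 157 genes the 3 VPA and 3 control libraries did not overlap at either age and lay in opposite order. Over all tested genes 235 (1.71%) had VPA above control at E15 and below it at P5 in this way, 142 (1.03%) had the reverse, 175 (1.28%) had VPA above control at both ages and 167 (1.22%) below it at both. At E15 the groups did not overlap for 2358 genes (17.2%) and at P5 for 3973 (29.0%). Just inside the threshold were Cebpb, Galnt11 and Abcc9, and just outside it was B3galt6 with an adjusted p of 0.0503. Of the 52 genes whose effect appeared at P5, 18 had a control mean under 1 FPKM at E15, a level at which the log2(FPKM + 1) scale compresses any effect.

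**Figure D1:**
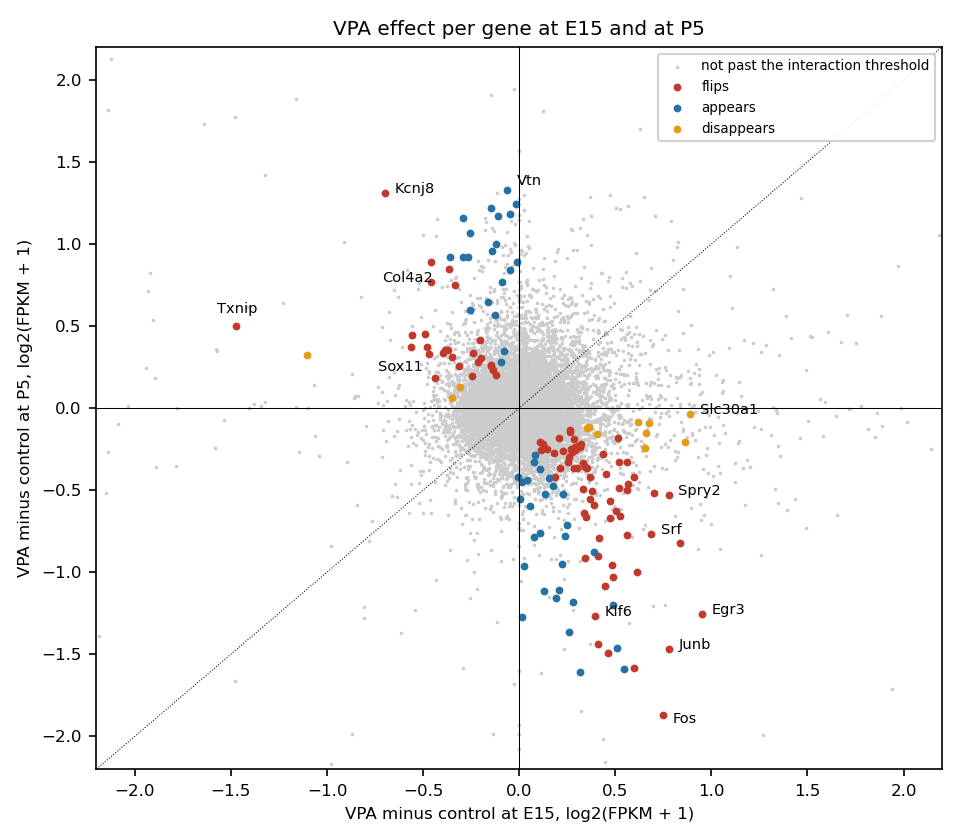
VPA minus control difference of each gene at E15 (x axis) and at P5 (y axis), both as log2(FPKM + 1), with called genes coloured by whether the effect flips, appears or disappears; grey points are genes not called, the dotted line marks equal effects, and 126 genes, 4 of them called, lie outside the axes. Most called genes sit at the lower right, higher with VPA at E15 and lower at P5, as Fos, Junb, Egr3 and Srf do, and Txnip and Kcnj8 lie farthest out at the upper left.

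The largest group of called genes was that of the immediate early genes. Of 30 tested members 18 had a negative change, against 0.772% of all tested genes, and none a positive one; 11 flipped and 7 appeared. The block at both ages left 9 members called. Their median change was -1.46, made up of a median VPA effect of 0.37 at E15 and of -1.04 at P5, where all tested genes had medians of -0.0029 at E15 and -0.0032 at P5. Of the 30 tested members, 25 were higher with VPA at E15 and lower at P5, as were 3525 of all 13722 tested genes. These genes were also far more abundant in P5 controls: the 32 listed genes summed to 808 to 1041 FPKM in VPA P5 against 2038 to 2356 FPKM in control P5 libraries, and to 428 to 562 FPKM in VPA E15 against 392.1 to 436 FPKM in control E15 libraries. The VPA P5 libraries held less of this RNA than the P5 controls and more than either E15 group.

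The promoters of 4 called immediate early genes that flipped are shown, so that response elements within 250 bases upstream of their starts can be read from the letters. Each runs from 250 bases before to 50 bases after a RefSeq transcription start on GRCm38.p6, the build also called mm10, 5′ to 3′ on the strand of the gene. Capitals mark the core of the cAMP response element (TGACG, or CGTCA on the other strand, which can overlap only each other) and the CArG box bound by serum response factor.
Fos (chr12:85473640-85473939, plus strand): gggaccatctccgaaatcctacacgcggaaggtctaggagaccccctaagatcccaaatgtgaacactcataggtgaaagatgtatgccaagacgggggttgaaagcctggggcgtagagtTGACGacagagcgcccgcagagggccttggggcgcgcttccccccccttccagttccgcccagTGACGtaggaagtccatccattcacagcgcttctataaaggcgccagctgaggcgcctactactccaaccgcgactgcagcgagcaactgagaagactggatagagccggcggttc
Junb (chr8:84978699-84978998, minus strand): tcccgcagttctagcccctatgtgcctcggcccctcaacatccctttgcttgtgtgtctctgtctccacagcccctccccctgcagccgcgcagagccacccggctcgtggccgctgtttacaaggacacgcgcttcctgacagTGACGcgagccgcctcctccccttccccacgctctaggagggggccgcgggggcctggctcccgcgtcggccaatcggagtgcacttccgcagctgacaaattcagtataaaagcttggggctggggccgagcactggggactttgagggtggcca
Nr4a1 (chr15:101266596-101266895, plus strand): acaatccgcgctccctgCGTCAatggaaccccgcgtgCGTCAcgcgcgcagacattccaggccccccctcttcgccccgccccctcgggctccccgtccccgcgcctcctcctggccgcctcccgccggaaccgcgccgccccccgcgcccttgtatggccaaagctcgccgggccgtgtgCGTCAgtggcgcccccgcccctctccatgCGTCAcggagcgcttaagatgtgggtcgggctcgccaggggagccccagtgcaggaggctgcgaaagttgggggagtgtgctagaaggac
Srf (chr17:46556113-46556412, minus strand): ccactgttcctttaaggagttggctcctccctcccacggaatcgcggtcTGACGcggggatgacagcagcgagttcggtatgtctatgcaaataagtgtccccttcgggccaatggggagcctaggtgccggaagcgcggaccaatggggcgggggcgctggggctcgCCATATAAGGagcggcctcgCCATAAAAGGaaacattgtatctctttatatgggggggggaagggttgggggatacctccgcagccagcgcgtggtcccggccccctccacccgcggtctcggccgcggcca

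In these windows the Fos promoter held the cAMP element core at 129 and 66 bases upstream of the start, Junb at 106 bases, Nr4a1 at 233, 213, 69 and 40 bases, and Srf at 201 bases together with CArG boxes at 82 and 62 bases. A gene counted where any of its windows held the motif. The core was present for 12 of the 15 called immediate early genes with a window (80.0%). It was present for 3595 of 10147 tested genes with a window (35.4%) and 6228 of all 27025 symbols with one (23.0%). A CArG box was present for 2 of the 15 (13.3%), Egr2 and Srf, against 1.62% of tested genes and 1.81% of all symbols. The AP-1 motif TGANTCA, to which Fos and Jun proteins bind, was in none of the 15, against 5.58% of tested genes and 8.97% of all symbols. These matches describe letters in the sequence and show no binding. Elements farther than 250 bases upstream lie outside the windows and were not searched, so a gene without a match here may still have one.

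Fos (chromosome 12, 85473890 to 85477273, plus strand) encodes a subunit of the AP-1 transcription factor and had the most negative change of all called genes apart from 2 small RNA genes. At E15 it was at 17.8, 22.5 and 12.4 FPKM in VPA libraries and 14.4, 7.66 and 8.39 FPKM in control libraries, which overlapped. At P5 it was at 148, 188 and 224 FPKM in VPA libraries and 627, 733 and 669 FPKM in control libraries. At P5 every VPA library lay below every control library. The VPA effect was 0.75 ± 0.24 (SE) at E15 and -1.87 ± 0.24 at P5, and its change was -2.62 ± 0.35 (limma, adjusted p = 0.00919, and 0.0515 with the block at both ages).

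Junb (chromosome 8, 84974484 to 84978718, minus strand), another AP-1 subunit, had 6.53, 7.48 and 7.51 FPKM in VPA E15 against 4.07, 4.32 and 2.98 FPKM in control E15 libraries. At P5 it had 26.6, 33.4 and 37.3 FPKM with VPA and 80.1, 100 and 92.6 FPKM in controls, so that the groups did not overlap at either age and changed order. Its change was -2.25 ± 0.20 (limma, adjusted p = 0.000816). Other AP-1 genes were less firm: Fosb had a change of -2.13 ± 0.43 (adjusted p = 0.0446) with overlapping E15 libraries, and Atf3, a stress-induced partner of Jun proteins, one of -1.97 ± 0.34 (adjusted p = 0.0275) from levels under 1.1 FPKM at E15. Their adjusted p was 0.0970 and 0.0778 with the block at both ages.

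The early growth response genes encode zinc finger factors that follow growth factor and synaptic signalling. Egr3 (chromosome 14, 70077203 to 70082614, plus strand) had 2.37, 2.45 and 2.77 FPKM in VPA E15 and 1.01, 0.688 and 0.784 FPKM in control E15 libraries. At P5 it had 3.74, 4.63 and 5.79 FPKM with VPA against 10.5, 12.0 and 15.5 FPKM in controls. VPA libraries were all above controls at E15 and all below them at P5, and the change was -2.20 ± 0.22 (limma, adjusted p = 0.00167). Egr2, known for its part in hindbrain patterning and myelination, appeared at P5, with 5.03 to 6.21 FPKM in VPA and 15 to 23 FPKM in control P5 libraries, and 0.0393 to 0.574 FPKM across all E15 libraries. Its change was -1.92 ± 0.22 (adjusted p = 0.00381). Egr1, given after its values were seen, averaged 141 ± 21.6 FPKM in VPA P5 and 390 ± 34.3 FPKM in control P5 libraries (SD, n = 3 each), but its change of -1.70 had an adjusted p of 0.0610 in limma and missed the threshold.

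Nr4a1 (chromosome 15, 101254269 to 101274795, plus strand) encodes an orphan nuclear receptor that many stimuli induce. It had 6.70, 6.34 and 6.63 FPKM in VPA E15 and 4.55, 3.13 and 4.44 FPKM in control E15 libraries, and 31.1, 45.3 and 57.9 FPKM in VPA P5 and 122, 143 and 133 FPKM in control P5 libraries. The groups were apart at both ages, in opposite order, with a change of -2.18 ± 0.26 (limma, adjusted p = 0.00555). Srf (chromosome 17, 46548329 to 46556175, minus strand) encodes serum response factor, which drives many immediate early genes through the CArG box. It had 30.5, 35.7 and 28.9 FPKM in VPA E15 and 20.2, 18.2 and 19.3 FPKM in control E15 libraries, and 20.0, 18.5 and 18.0 FPKM in VPA P5 and 30.8, 33.0 and 34.3 FPKM in control P5 libraries. Every VPA library lay above every control at E15 and below every control at P5. The effect on Srf passed the adjusted threshold at each age on its own: 0.69 ± 0.08 at E15 (adjusted p = 0.0147, and 0.183 with the block at both ages) and -0.77 ± 0.08 at P5 (adjusted p = 0.00204). Its change was -1.45 ± 0.11 (limma, adjusted p = 0.000297).

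Klf6 (chromosome 13, 5861482 to 5870394, plus strand), a Krüppel-like zinc finger factor, shared with Srf the smallest adjusted p outside the small RNA genes, 0.000297 in limma, with a change of -1.66 ± 0.13. Its levels were 10.7, 13.3 and 12.3 FPKM in VPA E15 and 8.97, 8.63 and 9.26 FPKM in control E15 libraries, and 11.4, 9.49 and 10.6 FPKM in VPA P5 and 24.5, 28.6 and 26.7 FPKM in control P5 libraries. Controls of Klf6 were higher at P5 than at E15, while VPA libraries averaged 12.1 FPKM at E15 and 10.5 FPKM at P5, with ranges that overlapped in part. Klf4, a factor of stem cell self-renewal, had a change of -1.68 ± 0.31 (adjusted p = 0.0342, and 0.112 with the block at both ages). Further listed genes with a negative change, named after their values were seen, were Jun at -1.46, Maff at -1.62, Nr4a2 at -1.61, Btg2 at -1.53, Ier2 at -1.35, Arc at -1.20, Dusp1 at -1.01 and Ier3 at -0.97. The 12 tested members that missed the threshold included Cyr61 at -1.91 (adjusted p = 0.0552), and the single positive value was that of Ier5 at 0.17 (adjusted p = 0.588).

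**Figure D2:**
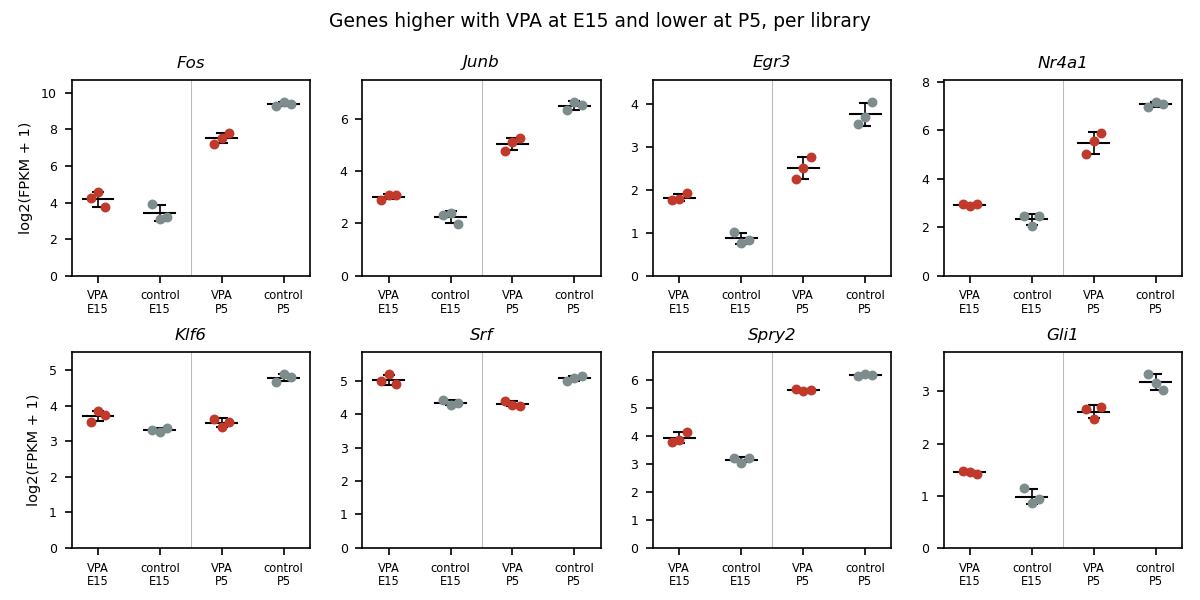
Level of 8 genes in each of the 12 libraries as log2(FPKM + 1), with VPA in red left of control in grey at each age; points are libraries, horizontal lines are means and bars are SDs (n = 3). In Junb, Egr3, Nr4a1, Klf6, Srf, Spry2 and Gli1 every VPA library lies above every control library at E15 and below every one at P5, and in Fos the E15 groups overlap.

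Other genes named by rule with a negative change were in none of the lists. Bhlhe40, a circadian and hypoxia-related repressor, had 1.74 to 2.92 FPKM in VPA E15 against 1.29 to 1.63 FPKM in control E15 libraries, and 10.2 to 13.9 FPKM in VPA P5 against 31.1 to 37.9 FPKM in control P5 libraries, with a change of -1.85 ± 0.20 (limma, adjusted p = 0.00332). Adamts1, a secreted protease that cleaves proteoglycans, had 5.09 to 9.34 FPKM in VPA E15 against 3.79 to 4.62 FPKM in control E15 libraries. At P5 it had 5.81 to 8.06 FPKM with VPA and 18.4 to 21.9 FPKM in controls, with a change of -1.96 ± 0.27 (adjusted p = 0.0112). Irf1, an interferon regulatory factor, had 0.512 to 1.14 FPKM in VPA E15 against 0.169 to 0.421 FPKM in control E15 libraries, and 8.83 to 9.62 FPKM in VPA P5 against 18.6 to 21.8 FPKM in control P5 libraries. Its change was -1.51 ± 0.18 (adjusted p = 0.00555). Tob1, an antiproliferative regulator of mRNA deadenylation, had 25.5 to 31.6 FPKM in VPA E15 against 21.9 to 23.7 FPKM in control E15 libraries and 34.9 to 35.3 FPKM in VPA P5 against 47.7 to 51.6 FPKM in control P5 libraries, with a change of -0.83 ± 0.10 (adjusted p = 0.00544). None of these 4 genes had overlapping groups at either age. The adjusted p was 0.0820 for Adamts1 and 0.0732 for both Irf1 and Tob1 with the block at both ages.

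The effect on Socs3, Cebpd and Nfkbiz, named after their values were seen, appeared at P5. Socs3, a feedback inhibitor of JAK-STAT signalling, averaged 17.6 FPKM in VPA P5 and 34.8 FPKM in control P5 libraries, with a change of -1.17 (limma, adjusted p = 0.0137). Cebpd, a transcription factor of the acute phase response, averaged 7.11 and 18.6 FPKM in the same groups, with a change of -1.29 (adjusted p = 0.00166), and Nfkbiz, a nuclear regulator of NF-kappaB, averaged 5.33 and 12.7 FPKM, with a change of -1.24 (adjusted p = 0.0258). At E15 the VPA effect of Cebpd was 0.01, at a control mean of 0.509 FPKM.

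Growth factor feedback genes, which limit receptor tyrosine kinase and MAP kinase signalling, had 3 of 12 tested members called. All 3 were negative, against 0.772% of all tested genes called negative. The median change was -0.41 against 0.0056 over all tested genes. Spry2 (chromosome 14, 105891947 to 105896819, minus strand), a Sprouty inhibitor of fibroblast growth factor signalling, had 12.8, 13.5 and 16.7 FPKM in VPA E15 and 8.16, 7.25 and 8.29 FPKM in control E15 libraries. At P5 it had 49.9, 47.9 and 48.5 FPKM with VPA and 69.3, 73.1 and 70.6 FPKM in controls. Its groups were apart in opposite order, the effect passed at E15 (0.78 ± 0.09, adjusted p = 0.0147, and 0.132 with the block at both ages) and at P5 (-0.53 ± 0.09, adjusted p = 0.0143), and the change was -1.31 ± 0.12 (limma, adjusted p = 0.00109). Spry2 and Srf were the genes that flipped with an adjusted p under 0.05 at each age. Dusp5, a nuclear phosphatase of ERK, flipped with a change of -1.66 ± 0.34 (adjusted p = 0.0460), at 1.73 to 1.94 FPKM in VPA E15, 0.304 to 1.34 FPKM in control E15, 0.846 to 1.94 FPKM in VPA P5 and 2.65 to 3.89 FPKM in control P5 libraries. Dusp4, a related phosphatase, appeared at P5 with 90.0 to 107 FPKM in VPA and 134 to 139 FPKM in control libraries and a change of -0.65 ± 0.12 (adjusted p = 0.0332). The adjusted p of Dusp5 was 0.0620 with the block at E15, and that of Dusp4 0.0910 with the block at both ages. The Ets factors Etv4 and Etv5, which respond to the same signalling, had changes of -0.09 and -0.27 that missed the threshold.

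Among 10 tested Hedgehog pathway genes, Gli1 and Ptch1 were called, both negative, against 0.772% of all tested genes called negative. Both are standard readouts of the pathway, Gli1 as its activated transcription factor and Ptch1 as the receptor that it induces. Gli1 had 1.77, 1.76 and 1.67 FPKM in VPA E15 and 1.21, 0.820 and 0.909 FPKM in control E15 libraries, and 5.29, 4.52 and 5.52 FPKM in VPA P5 and 9.07, 7.99 and 7.10 FPKM in control P5 libraries. It flipped without overlap, with a change of -1.04 ± 0.16 (limma, adjusted p = 0.0157). Ptch1 had 5.66 to 6.41 FPKM in VPA E15 against 3.01 to 4.98 FPKM in control E15 libraries, and 13.1 to 16.1 FPKM in VPA P5 against 17.9 to 23.3 FPKM in control P5 libraries, with a change of -1.03 ± 0.21 (adjusted p = 0.0446). Ptch1 had an adjusted p of 0.0586 with the block at E15, and Gli1 of 0.0974 with the block at both ages. The co-receptors Gas1, Boc and Cdon had changes of -0.85, -0.62 and -0.57 that missed the threshold, and the list median was -0.54. Shh itself was below the filter.

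Endoplasmic reticulum stress genes had 2 of 18 tested members called, both negative, against 0.772% of all tested genes called negative. Atf4, the transcription factor of the integrated stress response, flipped: it had 163, 186 and 157 FPKM in VPA E15 against 136, 128 and 127 FPKM in control E15 libraries, and 156, 171 and 150 FPKM in VPA P5 against 213, 206 and 219 FPKM in control P5 libraries. The groups did not overlap at either age, and the change was -0.79 ± 0.10 (limma, adjusted p = 0.00881). Hyou1, a chaperone of the reticulum, appeared at P5 with 22.7 to 23.7 FPKM in VPA and 28.1 to 30.1 FPKM in control libraries and a change of -0.41 ± 0.08 (adjusted p = 0.0473). Hyou1 had an adjusted p of 0.0805 with the block at E15, and Atf4 of 0.0820 with the block at both ages. All 18 members had a negative value, with a median of -0.33, and 17 of them were lower with VPA at P5. Of all 13722 tested genes 6733 had a negative value and 6970 were lower with VPA at P5.

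Cholesterol genes had 3 of 20 members called, all negative, against 0.772% of all tested genes called negative. The effect on all 3 appeared at P5. Insig1, which holds back the sterol sensor in the reticulum, had 40.5 to 43.8 FPKM with VPA and 58.5 to 70.0 FPKM in controls at P5, with a change of -0.65 ± 0.11 (limma, adjusted p = 0.0214). Idi1, an enzyme of isoprenoid synthesis, had 19.4 to 21.4 FPKM with VPA and 26.7 to 29.0 FPKM in controls at P5, with a change of -0.47 ± 0.09 (adjusted p = 0.0360). Idi1 had an adjusted p of 0.0620 with the block at E15, and Insig1 of 0.0964 with the block at both ages. The members did not share a direction of change between the ages: 13 of the 20 had a negative value and 7 a positive one, and the median was -0.11. At P5 itself 19 of the 20 were lower with VPA, with a median effect of -0.19, as were 6970 of all 13722 tested genes.

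Of 27 tested chromatin regulators 1 was called, with a negative change, against 0.772% of all tested genes called negative. Ep300, a histone acetyltransferase and coactivator, had 26.6, 25.9 and 22.9 FPKM in VPA E15 against 21.1, 19.7 and 19.5 FPKM in control E15 libraries, and 18.0, 17.4 and 18.1 FPKM in VPA P5 against 20.0, 23.6 and 19.9 FPKM in control P5 libraries. Its groups did not overlap at either age, and its change was -0.54 ± 0.11 (limma, adjusted p = 0.0446, and 0.0517 with the block at E15). The median over the list was -0.21, with 23 members negative, as were 6733 of all 13722 tested genes. Among histone deacetylase genes, some of whose products VPA inhibits, none of 13 was called in limma. At an unadjusted p under 0.05 were 3 of the 13, against 18.5% of all tested genes. The members with the smallest p were Sirt1 at -0.32 and Hdac4 at -0.47, and the median was 0.08. Outside these lists, and named after their values were seen, the Polycomb subunit gene Cbx8 flipped with a change of -0.85 (limma, adjusted p = 0.0196).

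Among called protein-coding genes the most positive changes were those of Kcnj8, a pericyte gene, and of Txnip (chromosome 3, 96557957 to 96561883, plus strand), which encodes an inhibitor of thioredoxin and of glucose uptake. It had 8.33, 5.42 and 12.1 FPKM in VPA E15 against 24.9, 23.2 and 25.8 FPKM in control E15 libraries, and 34.3, 25.4 and 25 FPKM in VPA P5 against 19.8, 18.1 and 20.6 FPKM in control P5 libraries. VPA libraries lay below controls at E15 and above them at P5. The effect was -1.47 ± 0.21 at E15 and 0.50 ± 0.21 at P5, with a change of 1.97 ± 0.30 (limma, adjusted p = 0.0160, and 0.0548 with the block at both ages). Neither within-age effect passed its own adjusted threshold, with adjusted p of 0.0646 at E15 and 0.227 at P5; with the block at E15 the E15 value was 0.0414.

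Pericyte and mural genes had 4 of 13 tested members called, all positive, against 0.372% of all tested genes called positive. Every one of the 13 had a positive value, as had 6989 of all 13722 tested genes, in libraries whose summed pericyte level at P5 was higher with VPA as given above. The median change was 1.18, with a median effect of -0.12 at E15 and of 0.86 at P5. Kcnj8 (chromosome 6, 142564837 to 142571614, minus strand) and Abcc9 encode the pore and the regulatory subunit of a potassium channel that senses ATP and that is a hallmark of brain pericytes. Kcnj8 had 0.923, 1.20 and 0.181 FPKM in VPA E15 against 1.90, 1.77 and 1.66 FPKM in control E15 libraries, and 19.1, 13.5 and 7.39 FPKM in VPA P5 against 4.64, 4.02 and 4.64 FPKM in control P5 libraries. Its change was 2.01 ± 0.41 (limma, adjusted p = 0.0478), and its VPA P5 libraries varied more than the controls. Abcc9 had 12.2, 9.29 and 5.85 FPKM in VPA P5 against 3.95, 3.16 and 3.89 FPKM in control P5 libraries, with a change of 1.32 ± 0.27 (adjusted p = 0.0494). No pericyte gene was called in limma with the block at E15, where 13 were tested and the adjusted p was 0.0638 for Kcnj8, 0.0871 for Abcc9, 0.0517 for Vtn and 0.0603 for Pdgfrb.

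Vtn (chromosome 11, 78499091 to 78502324, plus strand), vitronectin, an adhesion protein that pericytes secrete, had 57.3, 54.0 and 39.7 FPKM in VPA P5 against 20.1, 16.6 and 21.1 FPKM in control P5 libraries, and 2.18 to 4.27 FPKM in all E15 libraries. Its effect appeared at P5, with a change of 1.40 ± 0.27 (limma, adjusted p = 0.0388). Pdgfrb, the receptor through which pericytes are recruited, had 23.7, 19.1 and 14.0 FPKM in VPA P5 against 9.12, 8.63 and 8.56 FPKM in control P5 libraries, with a change of 1.12 ± 0.21 (adjusted p = 0.0342). Rgs5, the most abundant listed pericyte gene at P5, had 140, 97.6 and 69.0 FPKM in VPA P5 against 65.8, 54.8 and 56.8 FPKM in control P5 libraries, but its change of 1.25 missed the threshold (adjusted p = 0.103). In Kcnj8, Abcc9, Vtn, Pdgfrb and Rgs5 alike, VPA P5 replicate 3 was the lowest of the VPA P5 libraries. Cd248, endosialin, also a gene of pericytes and fibroblasts, had 7.68 to 12.3 FPKM with VPA and 4.67 to 5.37 FPKM in controls at P5, and a change of 1.28 ± 0.24 (adjusted p = 0.0360, and 0.0586 with the block at E15).

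Outside the lists, Col4a2 (chromosome 8, 11312805 to 11449287, plus strand), a chain of the collagen of basement membranes, had 3.16, 2.85 and 3.10 FPKM in VPA E15 against 4.37, 4.11 and 3.81 FPKM in control E15 libraries, and 20.7, 19.2 and 16.2 FPKM in VPA P5 against 10.1, 10.7 and 11.2 FPKM in control P5 libraries. The groups were apart at both ages, and the change was 1.08 ± 0.13 (limma, adjusted p = 0.00542, and 0.0732 with the block at both ages). Col4a1, its partner chain from the neighbouring gene on the opposite strand, named after its values were seen, had a change of 1.21 ± 0.15 (adjusted p = 0.00611). The 2 genes start head to head, with RefSeq promoter windows that overlap by 78 bases. Bgn (X chromosome, 73483602 to 73495933, plus strand), the proteoglycan biglycan, had 1.68, 1.67 and 2.07 FPKM in VPA E15 against 2.70, 2.79 and 3.06 FPKM in control E15 libraries, and 31.2, 25.9 and 27.9 FPKM in VPA P5 against 17.8, 17.4 and 13.6 FPKM in control P5 libraries, with a change of 1.23 ± 0.16 (adjusted p = 0.00814). The laminin genes Lamb1 and Lamc3, also chosen after their values were seen, had changes of 0.62 and 0.86.

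Fibroblast and meningeal genes had 2 of 10 tested members called, both positive, against 0.372% of all tested genes called positive. Col3a1, a fibrillar collagen, had 4.48, 4.17 and 6.17 FPKM in VPA P5 against 1.51, 2.07 and 2.60 FPKM in control P5 libraries, with a change of 1.10 ± 0.22 (limma, adjusted p = 0.0460), and Foxc1, a transcription factor of meninges and pericytes, had 2.40, 1.94 and 1.49 FPKM against 0.520, 0.678 and 0.694 FPKM, with a change of 0.89 ± 0.18 (adjusted p = 0.0430). Of 14 microglia and macrophage genes Pf4 was called, a chemokine gene of macrophages at the border of the brain and of platelets. It had 9.10, 11.2 and 6.28 FPKM in VPA P5 against 3.22, 2.96 and 3.70 FPKM in control P5 libraries, and was at 0 in 5 of the 6 E15 libraries, with an adjusted p of 0.0374 for the change. With the block at E15 the adjusted p was 0.0766 for Col3a1, 0.0713 for Foxc1 and 0.0638 for Pf4. None of 6 endothelial genes was called in limma, and 3 had an unadjusted p under 0.05, against 18.5% of all tested genes. The tight junction gene Cldn5 and the adhesion gene Esam had changes of 1.56 (limma, adjusted p = 0.0723) and 1.06 (adjusted p = 0.137).

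**Figure D3:**
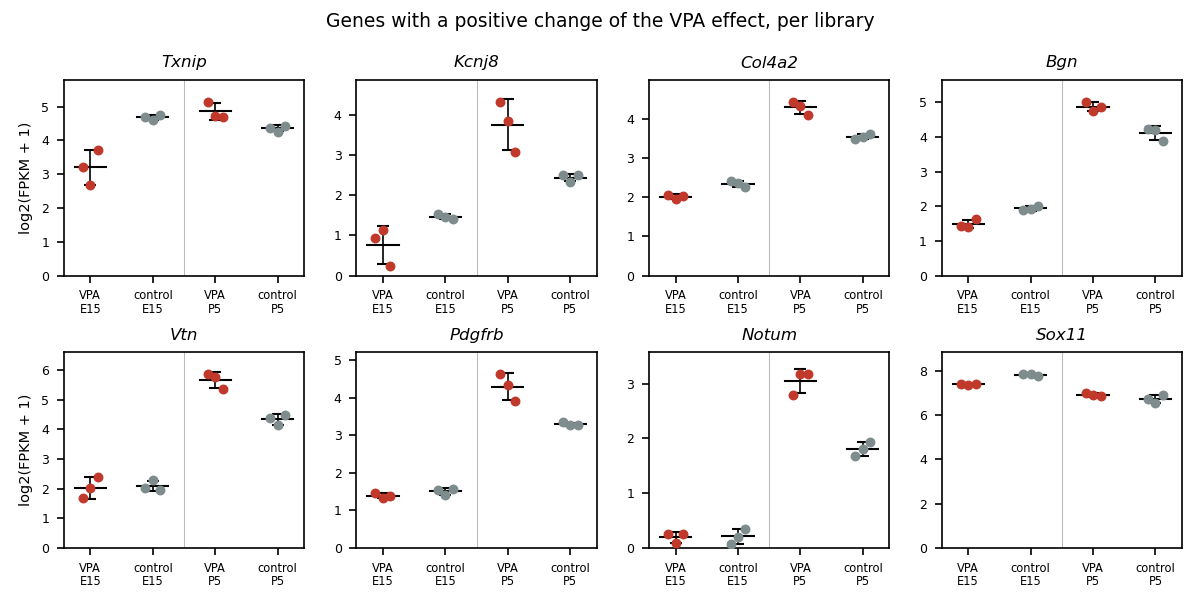
Level of 8 genes with a positive change of the VPA effect in each of the 12 libraries as log2(FPKM + 1), with VPA in red left of control in grey at each age; points are libraries, horizontal lines are means and bars are SDs (n = 3). Txnip, Kcnj8, Col4a2 and Bgn cross over between the ages, while Vtn, Pdgfrb and Notum separate only at P5 and Sox11 mainly at E15.

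Signalling genes with a positive change had varied roles, where 0.372% of all tested genes were called positive. Notum (chromosome 11, 120653788 to 120661175, minus strand), an extracellular enzyme that inactivates Wnt proteins, was the member called among 23 tested Wnt pathway genes. It was at 0.0561 to 0.279 FPKM in all E15 libraries and had 5.96, 8.06 and 8.06 FPKM in VPA P5 against 2.19, 2.51 and 2.81 FPKM in control P5 libraries, with a change of 1.26 ± 0.19 (limma, adjusted p = 0.0151). Among 19 BMP pathway and Id genes Grem1 was called, a secreted BMP antagonist that had 0.609 to 1.03 FPKM in VPA E15 against 1.47 to 1.61 FPKM in control E15 libraries, and 1.20 to 1.44 FPKM in VPA P5 against 0.675 to 0.924 FPKM in control P5 libraries. It flipped without overlap, with a change of 0.85 ± 0.15 (adjusted p = 0.0332, and 0.0579 with the block at E15). The adjusted p of Notum was 0.0649 with the block at both ages.

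Of genes tied to neurons, Rgs4, a regulator of G protein signalling, had 24.9, 23.7 and 17.6 FPKM in VPA P5 against 8.41, 8.23 and 10.7 FPKM in control P5 libraries, with overlapping E15 groups and a change of 1.23 ± 0.22 (limma, adjusted p = 0.0332). Gpr12, an orphan receptor that raises cAMP, had 6.07 to 7.78 FPKM in VPA E15 against 8.62 to 11.6 FPKM in control E15 libraries, and 4.50 to 7.85 FPKM in VPA P5 against 2.60 to 3.29 FPKM in control P5 libraries, with a change of 1.35 ± 0.24 (adjusted p = 0.0332). Of 20 newborn neuron genes Sox11, a transcription factor of immature neurons, was called with a positive change, against 0.372% of all tested genes called positive. It had 166, 165 and 167 FPKM in VPA E15 against 229, 227 and 218 FPKM in control E15 libraries, and 127, 118 and 114 FPKM in VPA P5 against 105, 92.0 and 120 FPKM in control P5 libraries. The E15 groups were far apart and the P5 groups overlapped. By the rule on unadjusted p in limma the effect on Sox11 still counted as a flip. The change of Sox11 was 0.62 ± 0.12 (adjusted p = 0.0360). With the block at E15 the adjusted p was 0.0534 for Rgs4, 0.0586 for Gpr12 and 0.0667 for Sox11.

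Of the 13 genes whose effect disappeared, 9 had a negative change, from a higher level with VPA at E15. Slc30a1 (chromosome 1, 191906767 to 191913247, plus strand), a zinc exporter, had 5.75, 7.78 and 6.24 FPKM in VPA E15 against 3.16, 2.88 and 3.16 FPKM in control E15 libraries, while at P5 it had 9.43, 9.26 and 8.21 FPKM with VPA and 9.59, 8.56 and 9.46 FPKM in controls. The effect was 0.89 ± 0.10 at E15 (limma, adjusted p = 0.0147, and 0.183 with the block at both ages) and -0.03 ± 0.10 at P5, and the change was -0.92 ± 0.14 (adjusted p = 0.0173). Mid1, a ubiquitin ligase bound to microtubules, had 21.5, 24.9 and 20.3 FPKM in VPA E15 against 13.0, 13.4 and 9.23 FPKM in control E15 libraries, with a change of -1.07 ± 0.20 (adjusted p = 0.0342). Rgs2, a regulator of G protein signalling, had 9.37, 10.2 and 10.3 FPKM in VPA E15 against 6.08, 6.97 and 4.91 FPKM in control E15 libraries, with a change of -0.81 ± 0.14 (adjusted p = 0.0297). Its P5 effect of -0.15 had an unadjusted p of 0.163 although the P5 groups did not overlap. The adjusted p of the change was 0.113 for Slc30a1, 0.0974 for Mid1 and 0.113 for Rgs2 with the block at both ages.

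Among the others whose effect disappeared, Kcng1, a modifier subunit of voltage-gated potassium channels and the member called among 29 ion channel genes, had 14.7 to 16.0 FPKM in VPA E15 against 8.87 to 10.5 FPKM in control E15 libraries and at most 1.03 FPKM at P5. Of all tested genes 0.772% were called with a negative change. The change of Kcng1 was -0.71 ± 0.14 (limma, adjusted p = 0.0429), and at P5 the gene itself was nearly silent in both groups. Neto2, an auxiliary subunit of kainate receptors, had a change of -0.48 (adjusted p = 0.0342), Pdp2, a phosphatase of pyruvate dehydrogenase, of -0.57 (adjusted p = 0.0342) and the zinc finger gene Zik1 of -0.48 (adjusted p = 0.0446). Positive changes belonged to Calcoco1, a coactivator and autophagy receptor gene, at 0.41 (adjusted p = 0.0446), Hip1r, an endocytic adaptor gene, at 0.43 (adjusted p = 0.0444), and the histone gene Hist4h4 (adjusted p = 0.0395), which was at 0 in 2 of 3 VPA E15 libraries and in all 3 control P5 libraries. With the block at E15 the calls of Kcng1, Neto2, Pdp2, Calcoco1 and Hist4h4 were lost, with adjusted p of 0.0699, 0.0582, 0.0585, 0.0713 and 0.0689, and with the block at both ages those of Zik1 and Hip1r, with 0.123 and 0.113.

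Small RNA genes gave 4 of the 157 calls, from libraries of polyadenylated RNA in which such short genes are scaled by a very small length. Mir6976 was listed at 186, 495 and 244 FPKM in the control P5 libraries and at 0 in all VPA P5 and all E15 libraries. It lies at 46553827 to 46553889 on chromosome 17, within Srf and on the same strand. Whether its values are separate from those of Srf was not tested. Mir3060 was listed at 96.8, 86.0 and 56.6 FPKM in the control P5 libraries and at 0 in all others. Mir568 was listed at 0 in the VPA E15 libraries and at 115, 211 and 27.2 FPKM in the control E15 libraries, with 391 to 1063 FPKM in VPA P5 and 602 to 1019 FPKM in control P5 libraries. A value of 0 in such files can be a failed estimate, and no fold is given for them. In limma the adjusted p of the change was 2.77e-06 for Mir6976, 3.69e-07 for Mir3060 and 0.0112 for Mir568, the last of these 0.0504 with the block at both ages.

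Several gene lists that describe the cells themselves had no member called in limma, although some members had an unadjusted p under 0.05, as 2536 of all tested genes did (18.5%). All 19 tested neural stem cell genes were lower with VPA at P5 and 11 were higher with VPA at E15, with a median change of -0.35 and 8 members at an unadjusted p under 0.05. Sox9, a factor of stem cell and glial fate, had 24.5 to 25.9 FPKM in VPA P5 against 37.1 to 43.3 FPKM in control P5 libraries and a change of -0.92 (adjusted p = 0.0696), and Nes itself had a change of -0.36 (adjusted p = 0.243). Of all 13722 tested genes 6970 were lower with VPA at P5, 6711 were higher at E15 and 6733 had a negative change. Of 26 S phase genes 25 and of 24 genes of G2 and mitosis 23 had a negative value, with medians of -0.32 and -0.26. In limma 8 and 2 of these members had an unadjusted p under 0.05. GABAergic identity genes, which are patterned in the ventral forebrain, were higher with VPA at E15 in all 19 tested members, with medians of 0.74 at E15 and -0.23 at P5, a median change of -1.15 and 9 members at an unadjusted p under 0.05. In Dlx2, a homeobox factor of that lineage, the libraries were at 59.3, 50.4 and 51.9 FPKM in VPA E15 and at 59.2, 23.9 and 14.5 FPKM in control E15, so the spread lay in the controls, where replicate 1 stood with the VPA libraries. Its change of -1.53 had an adjusted p of 0.267.

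Mature neuron and synapse genes had a positive value in 17 of 20 members, with a median of 0.22, and cytosolic ribosomal protein genes in 70 of 80, with a median of 0.18 from -0.13 at E15 and 0.05 at P5. A positive value was found for 6989 of all 13722 tested genes. At an unadjusted p under 0.05 in limma were 9 of the neuronal and 6 of the ribosomal genes. Camk2b, a kinase subunit of synapses, had 103 to 132 FPKM in VPA P5 against 80.2 to 95.8 FPKM in control P5 libraries and a change of 0.79 (adjusted p = 0.0650). Cxcr4, a chemokine receptor of migrating progenitors, had overlapping groups at both ages and a change of 0.34 (adjusted p = 0.622). The median changes of the other lists without a called member were 0.11 for cortical identity, -0.15 for intermediate progenitor and proneural, 0.20 for oligodendrocyte precursor, -0.11 for myelin, 0.06 for astrocyte, -0.20 for Notch pathway, -0.03 for cytosolic heat shock, 0.03 for glycolysis and hypoxia, -0.15 for imprinted, 0.02 for GABA and glutamate receptor, 0.04 for nuclear respiratory chain, -1.52 for erythroid and -2.12 for choroid plexus genes. For the last of these, VPA E15 replicate 3 stood far apart, with the choroid gene Ttr at 9662 FPKM against 29.7 and 56.1 FPKM in the other VPA E15 libraries. Those other libraries had choroid plexus sums of 40.8 and 70.3 FPKM, against 15.3, 22.8 and 163 FPKM in control E15 libraries. Among these lists the members at an unadjusted p under 0.05 ranged from 0 of 75 for respiratory chain and 0 of 9 for myelin to 8 of 23 for receptor genes. None of these list medians carries a test.

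**Figure D4:**
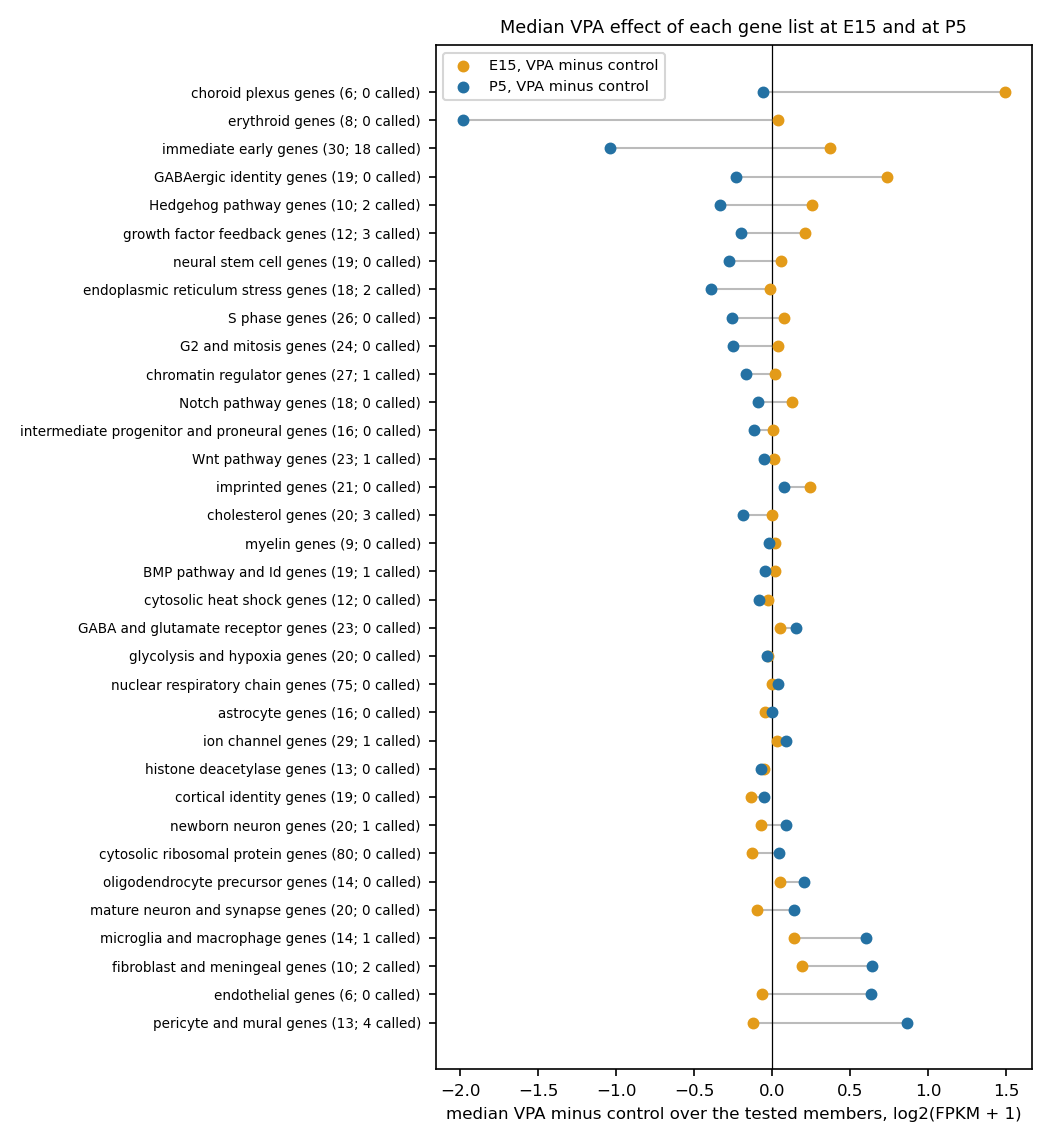
Median VPA minus control difference of each gene list at E15 (orange) and at P5 (blue), as log2(FPKM + 1), with the number of tested members and of members called for the change between ages in brackets. Immediate early genes lie to the right of 0 at E15 (0.37) and to the left at P5 (-1.04), and pericyte and mural genes at -0.12 and 0.86.

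The number of called genes depended on single libraries. Leaving out control P5 replicate 1, control P5 replicate 2 or VPA P5 replicate 2 gave 32, 33 and 37 calls, of which 32, 32 and 35 were among the 157, while leaving out control E15 replicate 1 gave 436 and leaving out VPA E15 replicate 3 gave 229. Without control E15 replicate 2 or 3 there were 44 and 51 calls, and without VPA E15 replicate 1 or 2 there were 89 and 70. The immediate early genes called ranged from 9 without control P5 replicate 2 to 20 without control E15 replicate 1 or VPA E15 replicate 3, and the pericyte genes from 0 without any of 7 single libraries to 8 without VPA P5 replicate 3. Of the 54 genes named by rule that were called, 18 stayed called in every such fit that tested them, 15 with a negative and 3 with a positive change, and none changed sign. With the block at E15 32 of the 54 were called, and with the block at both ages 11. The 18 were Fos, Junb, Egr2, Egr3, Nr4a1, Klf6, Srf, Bhlhe40, Irf1, Adamts1, Tob1, Spry2, Atf4, Col4a2, Bgn, Mir568, Mir6976 and Mir3060. Mir6976 and Mir3060 were tested in only 9 of the 12 such fits. They passed the filter only through the control P5 libraries, so the fits that could have weakened their calls did not test them. Gli1 and Notum lost their calls without control P5 replicate 1, control P5 replicate 2 or VPA P5 replicate 2, with adjusted p of at most 0.0527 and 0.0525, and Txnip without either of the same control libraries, with adjusted p of at most 0.0558. Slc30a1 lost its call without control E15 replicate 2, control P5 replicate 1 or VPA P5 replicate 2, with adjusted p of at most 0.0586. The pericyte genes were among the least firm: Kcnj8 kept its call in 1 of 12 such fits, Abcc9 in 2, and Vtn and Pdgfrb in 4 each, with adjusted p of up to 0.132, 0.139, 0.114 and 0.102. Ptch1 and Fosb kept theirs in 2 of 12, and Dusp5 in 1.

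**Figure D5:**
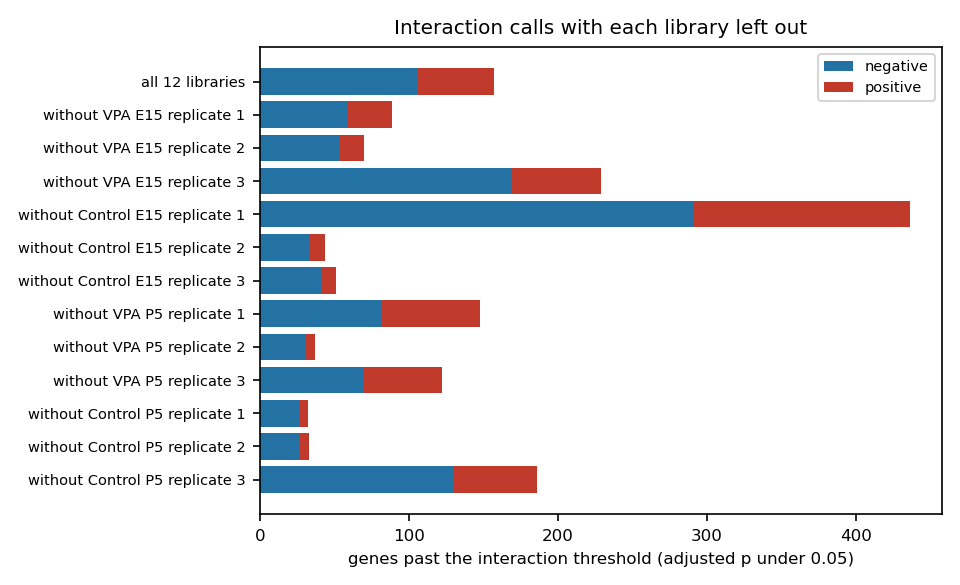
Number of genes called for the change of the VPA effect (x axis) with all 12 libraries and with each library left out in turn (rows), split into negative (blue) and positive (red) changes. Counts run from 32 without control P5 replicate 1 to 436 without control E15 replicate 1, against 157 with all libraries.

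Since the P5 groups differed in Y-linked transcripts, 2 further fits took this into account, both with fewer residual degrees of freedom. With a term in the fit for the absence of Y-linked transcripts, 33 genes were called, 28 negative and 5 positive, all 33 of them among the 157, and 11 of the immediate early genes remained called. Their median change was -1.40 in that fit and -1.46 without the term, and that of the pericyte genes was 1.16 against 1.18, although none of them was called. With only the 8 libraries that hold Y-linked transcripts, among them 1 control at P5, limma called no gene for the change, and 982 of 13502 had an unadjusted p under 0.05. The 51 called named genes tested there all kept their sign, and the medians were -1.32 for immediate early and 1.15 for pericyte and mural genes. The cause of the lower counts in these fits was not tested. In that smaller set the change was -2.26 for Fos, -2.33 for Junb, -1.40 for Srf, 0.98 for Col4a2 and 1.67 for Txnip.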

How the data were processed

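GFP-positive cells were profiled by RNA sequencing, 1 deposited file per library. The authors deposited 1 FPKM value per gene symbol; TopHat, Bowtie2, Cufflinks and Cuffdiff with mm10 are named per the submitters' processing notes, and their versions are not given in the sources used here. For the unit, the E15 and P5 headers give no name, and FPKM was taken from the values and from the 12-week headers. Counts were not used, so depth is known only relative to control E15 replicate 1 and limits precision mostly for low genes. Whether counting used strand is not stated, so overlapping genes such as Col4a1 and Col4a2 are uncertain where they overlap.

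Genes at 1 FPKM or more in at least 3 of the 12 libraries were fitted as log2(FPKM + 1) with limma 3.58.1 in R 4.3.3, with 4 groups and an intensity trend, and Benjamini-Hochberg adjustment ran over all 13722 genes. Replicate numbers were taken to pair libraries where every same-numbered pair of deviations from the group means correlated over 0.1, which held at E15 (0.127, 0.108 and 0.161) and not at P5 (0.0690, 0.0678 and -0.0374). The fit of the change was run on simulated data with independent noise and effects added only to the VPA P5 libraries. The sorting into flipping, appearing and disappearing effects was not tested on them. The members and gene lists were chosen with earlier results of these data known.

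Genes were named by a rule: the 10 largest changes per direction at a group mean of 5 FPKM or more, the 10 smallest p among flips and among disappearing effects, up to 4 called members per list and direction or, with none called, the 2 members with the smallest p by value, Nes and Cxcr4 always, and up to 3 small RNA genes. Numbered gene models were left out, and some results are not reported here. Genes outside the rule were chosen after their values were seen, namely Egr1, Cyr61, Ier5, Rgs5, Etv4, Etv5, Gas1, Boc, Cdon and Dlx2 besides those marked in the text. Promoter sequences are from RefSeq on GRCm38.p6, coordinates from GENCODE on GRCm38.

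Alternatives covered the pseudocount, filter, scaling, quality weights, trend, replicate blocks, a term for the absence of Y-linked transcripts, all 21 libraries, small RNA genes, the rule for the pattern, and each library left out.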

Additional observations from a re-analysis of the deposited data

Results flagged for a closer look

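The VPA effect at P5 differed from that at E15 by a test of the difference itself (limma) in the called genes named by rule, and the values below are that difference, P5 minus E15, on the log2(FPKM + 1) scale. Among immediate early genes and AP-1, Egr and Klf factors it was -2.62 for Fos, -2.25 for Junb, -2.20 for Egr3, -2.18 for Nr4a1, -2.13 for Fosb, -1.97 for Atf3, -1.92 for Egr2, -1.68 for Klf4, -1.66 for Klf6 and -1.45 for Srf. Among genes outside the lists it was -1.96 for Adamts1, -1.85 for Bhlhe40, -1.51 for Irf1 and -0.83 for Tob1.

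Feedback and Hedgehog genes had -1.66 for Dusp5, -1.31 for Spry2, -0.65 for Dusp4, -1.04 for Gli1 and -1.03 for Ptch1. Stress, sterol and acetyltransferase genes had -0.79 for Atf4, -0.41 for Hyou1, -0.65 for Insig1, -0.47 for Idi1 and -0.54 for Ep300. Where the effect disappeared after E15, the difference was -0.92 for Slc30a1, -1.07 for Mid1, -0.81 for Rgs2, -0.71 for Kcng1, -0.57 for Pdp2, -0.48 for Neto2, -0.48 for Zik1, 0.41 for Calcoco1 and 0.43 for Hip1r.

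Members of the pericyte and fibroblast lists and Cd248, Col4a2 and Bgn had 2.01 for Kcnj8, 1.40 for Vtn, 1.32 for Abcc9, 1.12 for Pdgfrb, 1.28 for Cd248, 1.08 for Col4a2, 1.23 for Bgn, 1.10 for Col3a1 and 0.89 for Foxc1. Further genes with a positive difference had 1.97 for Txnip, 1.26 for Notum, 0.85 for Grem1, 1.35 for Gpr12, 1.23 for Rgs4 and 0.62 for Sox11. For genes with a group listed at 0 throughout only the adjusted p is given: 2.77e-06 for Mir6976, 3.69e-07 for Mir3060, 0.0112 for Mir568, 0.0374 for Pf4 and 0.0395 for Hist4h4. With the replicate number as a block at E15 32 of the 54 called genes named by rule were called, and with a block at both ages 11.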

How the results depend on the processing

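Against 157 calls, the change of the VPA effect was called for 123 genes with a pseudocount of 0.1, 202 with 5, 157 without a filter, 155 with a filter at 5 FPKM, 147 after median-of-ratios scaling, 204 after quantile normalization, 157 without an intensity trend and 159 without small RNA genes. None of these scalings moved the median of all genes by over 0.1. A pseudocount of 0.1 gave 9 calls at E15, 159 at P5, 30 effects that appeared and 2 pericyte genes, and a pseudocount of 5 gave 9, 83 and 2 for E15, appearing effects and pericyte genes. No filter left 0 pericyte genes, the filter at 5 FPKM gave 245 calls at P5, quantile normalization 616 at P5, and leaving out small RNA genes 21 at E15.

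Array quality weights, with a weight of 4.66 on control E15 replicate 3, called 2073 genes: 896 positive, 1177 negative, 789 flips, 738 appearing, 539 disappearing and 8 pericyte genes, with 1031 calls at E15 and 1926 at P5. That fit called 43.2% positive, against 32.5% in the fit without weights. All 21 libraries in 1 fit called 14, of which 2 were positive and 12 negative, 9 flipped, 5 appeared and 0 disappeared, with 3 calls at E15, 15 at P5, 7 immediate early and 0 pericyte genes. The covariate for libraries without Y-linked transcripts gave 5 positive and 28 negative calls, 25 flips, 6 appearing, 2 disappearing, 34 calls at P5, 11 immediate early and 0 pericyte genes. Only the libraries with Y-linked transcripts, an alternative chosen after seeing the data, gave 0 for each class and both lists, 8 calls at E15 and 9 at P5. With patterns set by adjusted p there were 2 flips, 103 appearing and 2 disappearing effects, and with patterns set by size 16 flips. The cause of these moves was not tested.

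By a cut of 0.1 on the correlations of same-numbered libraries, the replicate numbers were taken to pair libraries at E15 and not at P5. The correlations at P5 were 0.0690, 0.0678 and -0.0374, and the labels do not state a pairing. In both E15 groups replicate 2 lacked Ddx3y and replicate 3 had the most choroid plexus RNA. What same-numbered libraries shared was not tested. The block at E15, an alternative chosen after seeing the data, gave 124 calls, 30 of them appearing, and 0 pericyte genes. The replicate block at both ages gave 17 calls, 1 positive and 16 negative, with 10 flips, 7 appearing, 0 disappearing, 0 calls at E15, 48 at P5, 9 immediate early and 0 pericyte genes, and 11 of the 54 called named genes. At E15 every library correlated best with its own number.

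With single libraries left out, negative calls ranged from 26 to 291, positive from 5 to 145, flips from 25 to 274, appearing from 4 to 77 and disappearing from 1 to 83, immediate early genes from 9 to 20, pericyte genes from 0 to 8, and calls from 1 to 143 at E15 and from 48 to 544 at P5. Without VPA P5 replicate 1 or 3 positive calls were 44.6% and 42.6% of all calls. Cxcr4, never called, ranged from -0.00342 without VPA E15 replicate 3 to 0.59 without VPA E15 replicate 2. Low genes, 3 libraries a group and the unknown depth limit all of these counts.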
